A study of Mus musculus with 18 samples.

Results

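The 8 genes described here, Ifit1, Ifit2, Ifit3, Rsad2, Cmpk2, Ifi44, Mx1 and Mx2, are antiviral effector genes switched on by type I interferon. They were taken by gene name from a table of 54532 genes counted by RNA sequencing in cultured primary microglia of the mouse (brain-resident macrophages), and all 8 passed the count filter that left 13267 genes for testing. Microglia came from pups at postnatal day 0 to 3, were kept in mixed culture for 10 days and were then isolated and plated. The genotype was either mTrem2 +/+ (called Trem2+/+ below) or hTrem2 R47H/+ (called R47H/+ below), which carries on 1 allele the R47H form of TREM2, a lipid-sensing receptor of microglia. The genotypes thus differ in the prefix, m or h, as well as in R47H, and no group had hTrem2 without R47H. A difference between them therefore cannot be assigned to R47H alone. All cells had a 6 h pre-treatment before stimulation. Trem2+/+ and R47H/+ cells pre-treated with 0.01% DMSO vehicle were left without tau or given 0N4R tau fibrils at 1 ug per ml. Further R47H/+ cells were pre-treated with MK2206, an inhibitor of the kinase Akt, at 1 uM, and were likewise left without tau or given tau. No DMSO share is given for the MK2206 cells, there was no Trem2+/+ group with MK2206, and the length of the tau exposure and the strain are not given in the sources used here. Each of the 6 groups had 3 libraries. Nothing in the labels says that replicates were separate cultures or animals, so each p-value speaks only of the scatter among these libraries, which could be technical scatter.

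Type I interferon, of which interferon beta is the form macrophages make first, binds the receptor IFNAR1 and IFNAR2 on the same or a neighbouring cell. The kinases JAK1 and TYK2 then activate a factor complex that holds STAT2 and IRF9 and binds the interferon-stimulated response element in front of target genes. IRF3, activated by nucleic acid or lipopolysaccharide sensing, can bind the same kind of element without any interferon, and IRF7 is both a target and an amplifier of the loop. In microglia this programme is known from viral infection, from ageing and from amyloid and tau models. IFIT1 binds foreign or unmethylated RNA ends and blocks translation of such RNA, and IFIT2 and IFIT3 belong to the same family. Viperin, the product of Rsad2, makes a chain-terminating nucleotide from CTP, and Cmpk2, its neighbour, encodes a mitochondrial kinase that supplies the CTP. MX1 and MX2 are dynamin-like GTPases that trap viral nucleoproteins. IFI44 is an interferon-induced protein of the cytoplasm whose role is less well defined.

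Ifit2, Ifit3 and Ifit1 lie in this order on chromosome 19 of GRCm38, all on the plus strand, at chr19:34550694-34576419, chr19:34583531-34588731 and chr19:34640871-34650009. Rsad2 (chr12:26442746-26456452, minus strand) and Cmpk2 (chr12:26469204-26479837, plus strand) lie 12751 bases apart and point away from each other. Mx1 (chr16:97447035-97462907, minus strand) and Mx2 (chr16:97535308-97560900, plus strand) have 72400 bases between them, and Ifi44 is alone on chromosome 3 (chr3:151730922-151749960, minus strand). The deposited table lists Mx2 as a polymorphic pseudogene and the other 7 as protein-coding. The Mx genes are known to carry inactivating changes in many laboratory mouse strains, so their RNA is described here as RNA only. Of the 150-base windows in its transcripts, Ifit3 shares 18.5% with its copy Ifit3b and Ifit1 shares 1.24% with Ifit1bl2, so the split of reads between these pairs is uncertain. No such window of the other 6 genes occurs in another gene.

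Promoters show what the members share in sequence and where they differ. The RefSeq table for GRCm38.p6 held 7 promoter windows for 6 of the 8 members, each running from 250 bases before a start site to 50 bases after it. The core of the interferon-stimulated response element, GAAANNGAAA on either strand, was found in 3 of these 6 genes, Ifit1, Ifit3 and Rsad2, against 3.44% of all 32851 promoter windows (1131). Below are the 250 bases before the start site of these 3 genes and of Cmpk2, 5′ to 3′ along the gene, with capitals on each match, which here reads as the reverse complement. They come from chr19:34640639-34640888 (plus strand), chr19:34583279-34583528 (plus), chr12:26456453-26456702 (minus) and chr12:26468965-26469214 (plus).
Ifit1: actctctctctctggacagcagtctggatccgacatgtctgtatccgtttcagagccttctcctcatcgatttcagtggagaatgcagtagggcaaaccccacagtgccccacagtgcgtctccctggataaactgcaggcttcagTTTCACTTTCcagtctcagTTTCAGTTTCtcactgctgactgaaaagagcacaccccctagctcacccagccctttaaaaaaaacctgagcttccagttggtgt
Ifit3: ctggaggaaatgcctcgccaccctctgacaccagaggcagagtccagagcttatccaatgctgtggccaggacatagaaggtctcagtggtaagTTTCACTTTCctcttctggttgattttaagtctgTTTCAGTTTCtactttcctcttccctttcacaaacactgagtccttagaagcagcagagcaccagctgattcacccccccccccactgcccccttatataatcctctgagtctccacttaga
Rsad2: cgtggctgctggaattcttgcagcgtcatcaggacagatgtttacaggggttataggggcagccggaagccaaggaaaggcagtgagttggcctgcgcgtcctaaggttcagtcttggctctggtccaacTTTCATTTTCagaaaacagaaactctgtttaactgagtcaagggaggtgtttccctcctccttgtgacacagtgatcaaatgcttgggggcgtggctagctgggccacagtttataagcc
Cmpk2: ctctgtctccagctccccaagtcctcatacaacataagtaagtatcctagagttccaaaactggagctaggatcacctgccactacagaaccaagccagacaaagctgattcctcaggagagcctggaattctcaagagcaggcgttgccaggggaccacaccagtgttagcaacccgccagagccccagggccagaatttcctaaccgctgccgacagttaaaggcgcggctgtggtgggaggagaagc

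Ifit1 held a pair of matches, at bases -104 to -95 and -85 to -76 from the start site, and Ifit3 held a pair at -156 to -147 and -122 to -113. The earlier match of each pair has the same letters, TTTCACTTTC, and so has the later one, TTTCAGTTTC. Rsad2 held 1 match at -120 to -111, TTTCATTTTC. Neither of the 2 Ifit2 windows nor the single windows of Cmpk2 and Ifi44 held the core. The gamma-activated site TTCNNNGAA, an element of the response to interferon gamma, was found in 1 member window, of Ifit2 at -241 to -233, against 8.30% of all windows. No match overlapped another, and a match is a description of letters, not a bound site. The window of Ifit1bl2 on the minus strand shares 245 bases with that of Ifit1, so the pair of matches in front of each is the same stretch of DNA. Ifit3 and Ifit3b share an unbroken run of 169 bases that holds both of their matches.

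**Figure D1:**
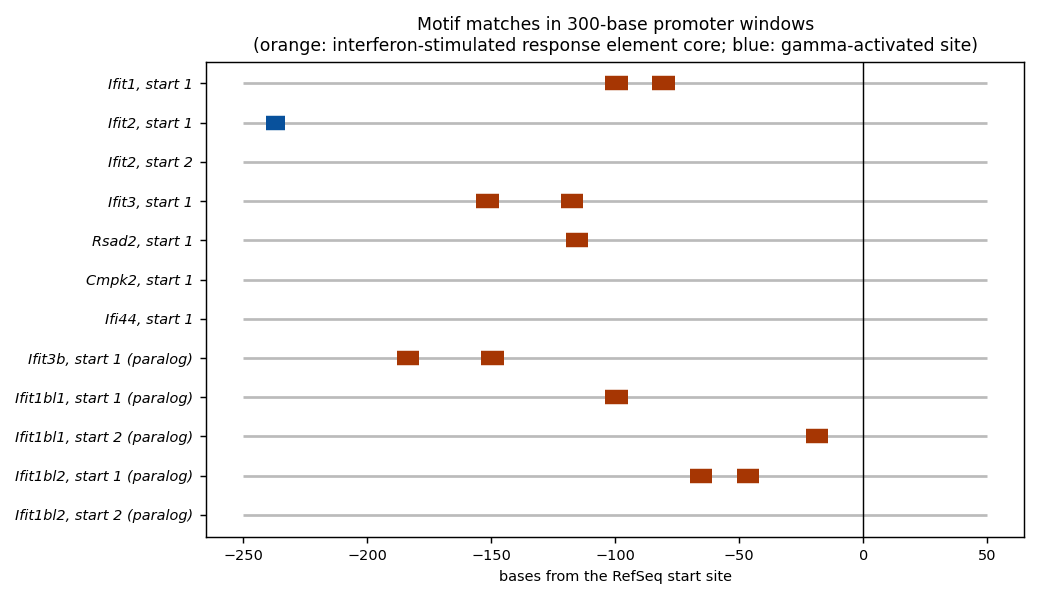
Positions of motif matches in the RefSeq promoter windows of 6 members and 3 paralogs of the IFIT cluster. The horizontal axis gives bases from the start site, each grey line is 1 window, and the marks lie at the positions named in the text, with no response element core in the windows of Ifit2, Cmpk2 and Ifi44.

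Libraries held between 16288531 and 20686299 counts and between 17321 and 18626 genes with a count. Counts of long genes were depleted in replicate 3 of Trem2+/+ without tau and replicate 2 of R47H/+ with tau. Regressed on log10 gene length, the difference in log2 CPM from the other libraries of the group had a slope of -1.39 in the former and -0.73 in the latter, while the remaining 16 libraries lay between -0.17 and 0.14. Results of the members are therefore also given without these 2 length-shifted libraries. The differences of the other listed interferon genes are given over all 18 libraries only, so their sizes may depend on these 2. Trem2 itself lay at 945 and 935 CPM in Trem2+/+ replicates 1 and 2 and at 1894 CPM in the length-shifted replicate 3. In R47H/+ cells without tau it lay between 451 and 489 CPM. These values do not show which form is made, or whether reads of the hTrem2 allele were counted. Microglia and macrophage markers summed to between 5752 and 10227 CPM, though the homeostatic marker Tmem119 averaged only 0.642 to 1.57 CPM per group. Neuron markers summed to at most 4.66 CPM and fibroblast and vessel markers to at most 2.93 CPM. Astrocyte markers summed to between 54.9 and 107 CPM and oligodendrocyte lineage markers to between 219.7 and 306 CPM. Of 8 monocyte, granulocyte and lymphocyte markers, S100a9, Ly6g, Cd3e and Nkg7 were at 0 in every library, and the sum of the list moved with tau. It was 14.9 to 28.1 CPM in Trem2+/+ cells, 171 to 196 with tau, 32.8 to 44.6 in R47H/+ cells, 174 to 244 with tau, 11.9 to 19.5 with MK2206 and 121 to 164 with both. Ly6c2, a monocyte gene that interferon also induces, went from 4.66 CPM in Trem2+/+ cells to 146 CPM with tau, and the part of such cells in the results was not tested.

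The 8 members together took 0.0422 to 0.0629% of all counts in Trem2+/+ cells and 1.09 to 1.32% in R47H/+ cells with tau. Their share was 0.247 to 0.270% in R47H/+ cells with MK2206, 0.360 to 0.415% in R47H/+ cells, 0.647 to 0.739% in Trem2+/+ cells with tau and 1.07 to 1.17% in R47H/+ cells with MK2206 and tau. Every member had this same order of group means, from Trem2+/+ at the bottom to R47H/+ with tau at the top. Neighbouring groups in the order did not overlap in any member, except the top pair, R47H/+ with tau with and without MK2206, which overlapped in 7 of 8 (all but Ifit3). How many of all genes have groups without overlap is not given, so such statements, here and below, only describe the members. In these bulk samples, fewer cells making a transcript and less of it per cell cannot be told apart. Levels below are in CPM, counts scaled to the same library size, unless another scale is named, listed from replicate 1 to 3.

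**Figure D2:**
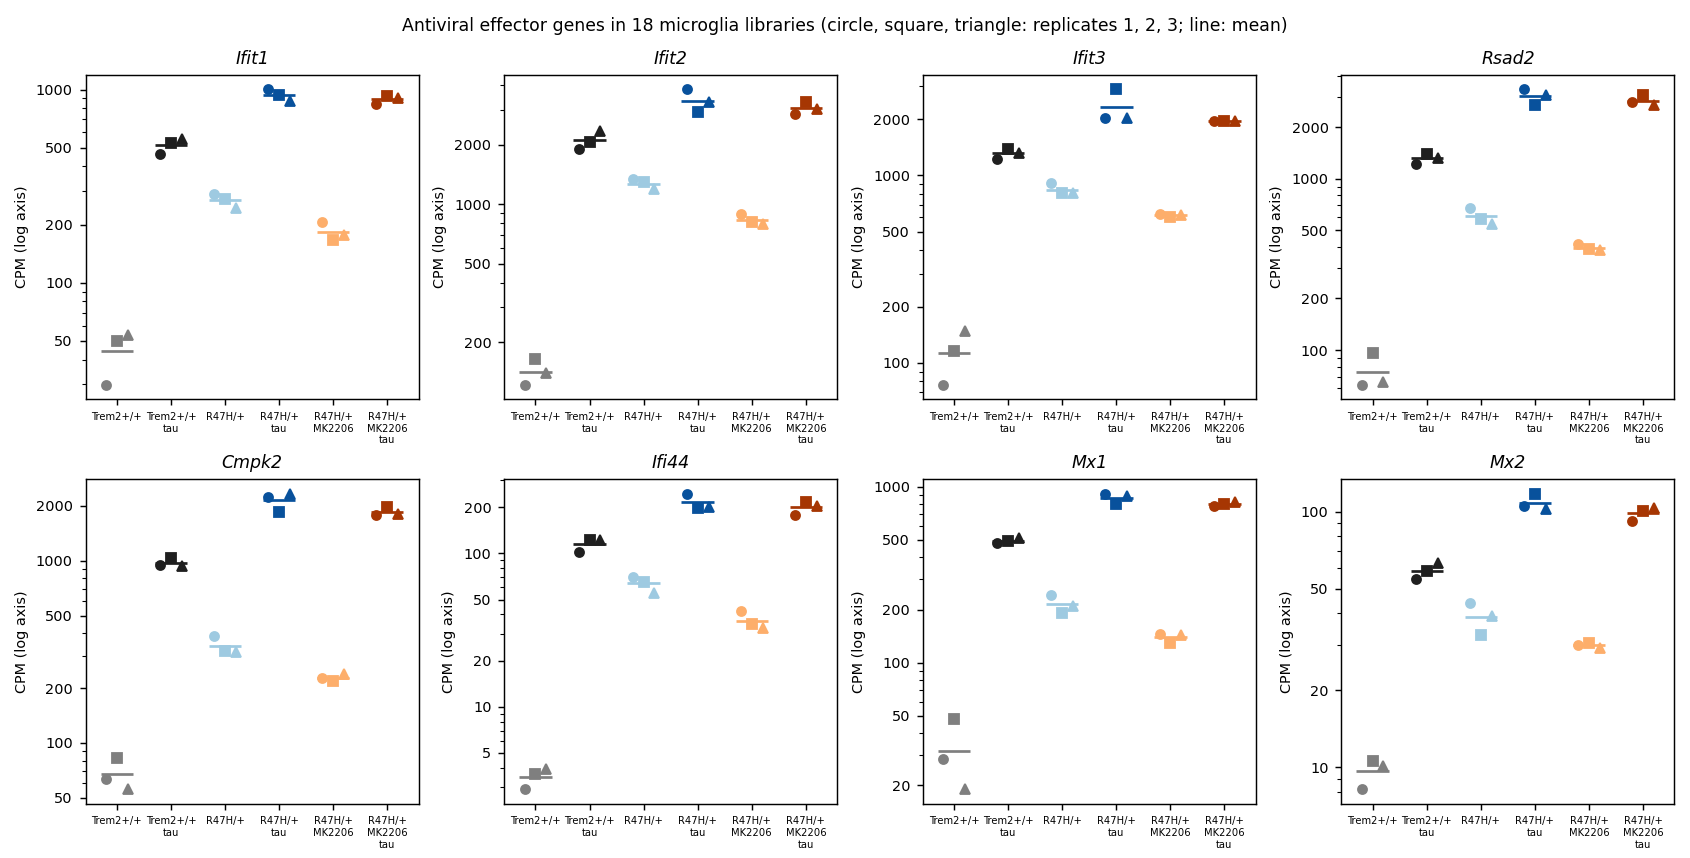
CPM of each member in all 18 libraries on log axes, with 1 panel per gene. Symbols mark replicates 1 to 3 and lines mark group means. In every panel the Trem2+/+ libraries without tau lie lowest, R47H/+ cells with MK2206 lie below R47H/+ cells, and the R47H/+ groups with tau, with and without MK2206, lie highest.

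Among the IFIT genes, Ifit1 stood at 29.7, 49.7 and 53.4 CPM in Trem2+/+ cells, 289, 271 and 245 in R47H/+ cells and 207, 167 and 176 in R47H/+ cells with MK2206. With tau it reached 461, 532 and 554 CPM in Trem2+/+ cells, 1002, 934 and 869 in R47H/+ cells and 846, 925 and 903 with MK2206. Trem2+/+ replicate 1 was low, and the highest 6 libraries were those of R47H/+ cells with tau, with or without MK2206. Ifit2, whose product pairs with IFIT1 and IFIT3, was at 122, 164 and 139 CPM in Trem2+/+ cells, 1335, 1288 and 1189 in R47H/+ cells and 889, 813 and 788 with MK2206. After tau the Ifit2 values were 1906, 2053 and 2357 CPM in Trem2+/+ cells, 3813, 2924 and 3283 in R47H/+ cells and 2847, 3286 and 3024 with MK2206. The ranges were apart in Ifit2 except between the top pair of groups. Ifit3 had 76.6, 116 and 148 CPM in Trem2+/+ cells, 909.9, 802 and 803 in R47H/+ cells and 623, 597 and 619 with MK2206. Under tau its libraries held 1228, 1380.3 and 1325 CPM in Trem2+/+ cells, 2029.7, 2882 and 2032 in R47H/+ cells and 1954, 1957 and 1950.1 with MK2206. The high value, 2882 CPM, belongs to R47H/+ with tau replicate 2, the library in which short genes are high, and Ifit3 is the shortest member at 1745 bases. Per gene length, in TPM, transcripts scaled to the same library total, Ifit3 led the members in every group mean, from 169.7 ± 37.8 TPM (SD, n = 3) in Trem2+/+ cells to 3254 ± 214 TPM in R47H/+ cells with tau. There it ranked 31 to 34 among all genes of the library. Ifit2 came next to it in each group mean, from 99.5 ± 34.5 TPM in Trem2+/+ cells to 2145 ± 516 TPM in R47H/+ cells with tau.

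Rsad2, the viperin gene, had 62.8, 95.9 and 65.5 CPM in Trem2+/+ cells, 679, 583 and 547 in R47H/+ cells and 414, 387 and 384 with MK2206. In tau-treated cells it lay at 1224, 1385 and 1329.6 CPM in Trem2+/+, 3327, 2693 and 3068 in R47H/+ and 2807, 3063 and 2702 with MK2206. The tau-treated R47H/+ libraries therefore all exceeded the tau-treated Trem2+/+ ones, whose highest value was 1385 CPM. Cmpk2, which supplies viperin's substrate, was at 63.5, 82.8 and 56.0 CPM in Trem2+/+ cells, 384, 318 and 314 in R47H/+ cells and 228, 219.7 and 238 with MK2206. Tau-treated libraries held 946, 1027 and 937 CPM of Cmpk2 in Trem2+/+ cells, 2245, 1845 and 2330.2 in R47H/+ cells and 1772, 1968 and 1799 with MK2206. Its low value among tau-treated R47H/+ libraries, 1845 CPM, was replicate 2, the library with few counts in long genes. Ifi44 was the least abundant member per length in Trem2+/+ cells, with 1.53 ± 0.358 TPM. In CPM it was at 2.91, 3.62 and 3.91 CPM in Trem2+/+ cells, 70.6, 65.4 and 55.0 in R47H/+ cells and 42.1, 34.5 and 32.8 with MK2206. The Trem2+/+ values of Ifi44 rest on 193 counts over 3 libraries. Tau took it to 102, 121 and 122 CPM in Trem2+/+ cells, 245, 198 and 201 in R47H/+ cells and 179, 215 and 204 with MK2206, all above the R47H/+ libraries without tau.

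Mx1 had 28.2, 47.5 and 19.1 CPM in Trem2+/+ cells, 243, 193 and 209 in R47H/+ cells and 145, 129 and 144 with MK2206. Its tau-treated values were 479, 492 and 509 CPM in Trem2+/+ cells, 915, 799 and 882 in R47H/+ cells and 779.8, 795 and 814 with MK2206. Trem2+/+ replicate 2 was high and replicate 3 low in Mx1, and its coefficient of variation in that group, 45.9%, was the highest of any member and group. Mx2 was the lowest member per length with tau, at 74.6 ± 4.85 TPM in R47H/+ cells. In CPM it stood at 8.21, 10.6 and 10.1 CPM in Trem2+/+ cells, 43.7, 33.0 and 38.9 in R47H/+ cells and 30.1, 30.7 and 29.2 with MK2206. Mx2 with tau was at 54.3, 58.6 and 63.1 CPM in Trem2+/+ cells, 105, 118 and 103 in R47H/+ cells and 92.1, 101 and 103 with MK2206. R47H/+ replicate 2 lay just above the highest MK2206 library.

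The first comparison asks how R47H/+ microglia differ from Trem2+/+ microglia before any tau. All 8 members were higher in R47H/+ cells, and no library of one genotype overlapped the other. Ifi44 differed most, by 4.19 ± 0.17 log2 units (± SE), or 18.3-fold, with an adjusted p of 2.60e-10 by edgeR's quasi-likelihood test with Benjamini-Hochberg adjustment, the test behind every adjusted p below. Ifit2 was 8.97-fold higher (3.16 ± 0.14, adjusted p 3.44e-10), Rsad2 8.07-fold and Ifit3 7.40-fold. Mx1 was 6.77-fold higher, Ifit1 6.06-fold and Cmpk2 5.02-fold. Mx2 differed least, by 2.0 ± 0.13 or 4.0-fold (adjusted p 1.54e-08). The median over members was 2.82 log2 units against -0.02 over all genes tested, of which 8.22% were called higher and 6.83% lower. Without both length-shifted libraries all 8 were again called, beside 15.8% of all genes called higher, from 2.03 to 4.27 with a median of 2.84. Mx1 then stood at 2.50 and Ifit3 at 3.12.

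Tau raised all 8 members in Trem2+/+ cells, with no overlap between treated and untreated libraries. Ifi44 went up 33.1-fold (5.05 ± 0.17 log2, adjusted p 1.65e-11), Rsad2 17.6-fold (4.13 ± 0.17) and Mx1 15.6-fold. Ifit2 went up 14.9-fold, Cmpk2 14.4-fold, Ifit1 11.6-fold and Ifit3 11.6-fold. Mx2 showed the smallest change, 6.08-fold (2.60 ± 0.13, adjusted p 3.09e-10). The median change was 3.87 log2 units against -0.04 over all genes, of which 14.4% were called higher and 12.1% lower. This comparison shares its untreated Trem2+/+ libraries with the genotype comparison, so the members' values in both rest on the same 3 low libraries. Without the length-shifted libraries the 8 were called with 2.62 to 5.11 log2 units (median 3.73), beside 21.6% of all genes called higher.

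In R47H/+ cells tau also raised all 8, from a higher starting level. Cmpk2 rose 6.32-fold (2.66 ± 0.15 log2, adjusted p 3.15e-09), Rsad2 5.02-fold and Mx1 4.03-fold. The other 5 rose between 2.63-fold in Ifit2 (1.39 ± 0.13, adjusted p 8.13e-07) and 3.49-fold in Ifit1. The median change was 1.78 log2 units against -6.13e-05 over all genes, of which 15.0% were called higher and 12.6% lower. R47H/+ cells with MK2206 responded to tau in all 8 members too, between 3.19-fold in Ifit3 and 8.09-fold in Cmpk2, with a median of 2.37 log2 units, where 14.3% of all genes were called higher and 11.3% lower. Without the length-shifted libraries all 8 were called in both, with medians of 1.79 (1.26 to 2.74) in R47H/+ cells and 2.35 (1.66 to 3.00) with MK2206, beside 21.6% and 22.7% of all genes called higher.

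Whether the response to tau differed between genotypes was tested as an interaction, the log2 change in R47H/+ cells minus that in Trem2+/+ cells. It was below 0 and past the threshold in all 8 members, with a median of -1.88, while 2.05% of all genes were called higher and 3.32% lower. Ifi44 had the lowest value, -3.29 ± 0.21 (adjusted p 7.58e-07), followed by Ifit2 at -2.50 ± 0.19 (adjusted p 9.77e-07). Ifit3 had -2.07, Mx1 -1.95, Rsad2 -1.81 and Ifit1 -1.74. Cmpk2, at -1.19 ± 0.19, and Mx2, at -1.11 ± 0.17, had the values nearest to 0. Without the length-shifted libraries all 8 were called, between -3.32 and -0.97, beside 7.39% of all genes called lower. The sign depends on the scale. In CPM over all libraries, the mean rise with tau was larger in R47H/+ cells than in Trem2+/+ cells for each member, but for Ifit3 this rests on R47H/+ with tau replicate 2. Without the length-shifted libraries the Ifit3 rise was 1215 ± 48.7 CPM in Trem2+/+ and 1193 ± 35.8 CPM in R47H/+ cells, a ratio of 0.982, and the ratios of the other 7 lay between 1.16 (Ifit2) and 2.17 (Cmpk2). Over all libraries Cmpk2 rose by 903 ± 29.8 CPM (difference of means ± SE) in Trem2+/+ cells and by 1801 ± 151 CPM in R47H/+ cells, a ratio of 2.0. For Rsad2 the rises were 1238 ± 48.5 and 2426 ± 188 CPM, a ratio of 1.96. Ifit2 rose by 1964 ± 133 and 2069 ± 262 CPM, a ratio of 1.05, and those of Ifit3 were 1198 ± 49.1 and 1477 ± 286 CPM, so both genes differ between genotypes by less than the error of the rises. The ratio was 1.43 for Mx2, 1.42 for Ifit1, 1.41 for Mx1, 1.35 for Ifi44 and 1.23 for Ifit3.

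After tau, R47H/+ cells still held more of every member than Trem2+/+ cells, by smaller folds than before tau. Rsad2 was 2.31-fold higher (1.21 ± 0.15 log2, adjusted p 8.11e-05) and Cmpk2 2.21-fold (1.14 ± 0.14, adjusted p 7.46e-05). The remaining 6 lay between 1.59-fold in Ifit2 and 1.87-fold in Ifi44, and no library overlapped between genotypes in any member. The median was 0.87 log2 units against -0.0021 over all genes, of which 5.25% were called higher and 4.24% lower. Leaving out the length-shifted libraries, all 8 were called, with 0.63 to 1.28 and a median of 0.86, beside 11.9% of all genes called higher. Mx1 had the weakest call (0.81 ± 0.21, adjusted p 0.0241). It lost its call when any tau-treated Trem2+/+ library, or replicate 1 or 3 of R47H/+ with tau, was left out, with adjusted p between 0.055 and 0.092. So did Ifit3 without Trem2+/+ with tau replicate 1 (adjusted p 0.0557) or R47H/+ with tau replicate 2 (0.0553).

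**Figure D3:**
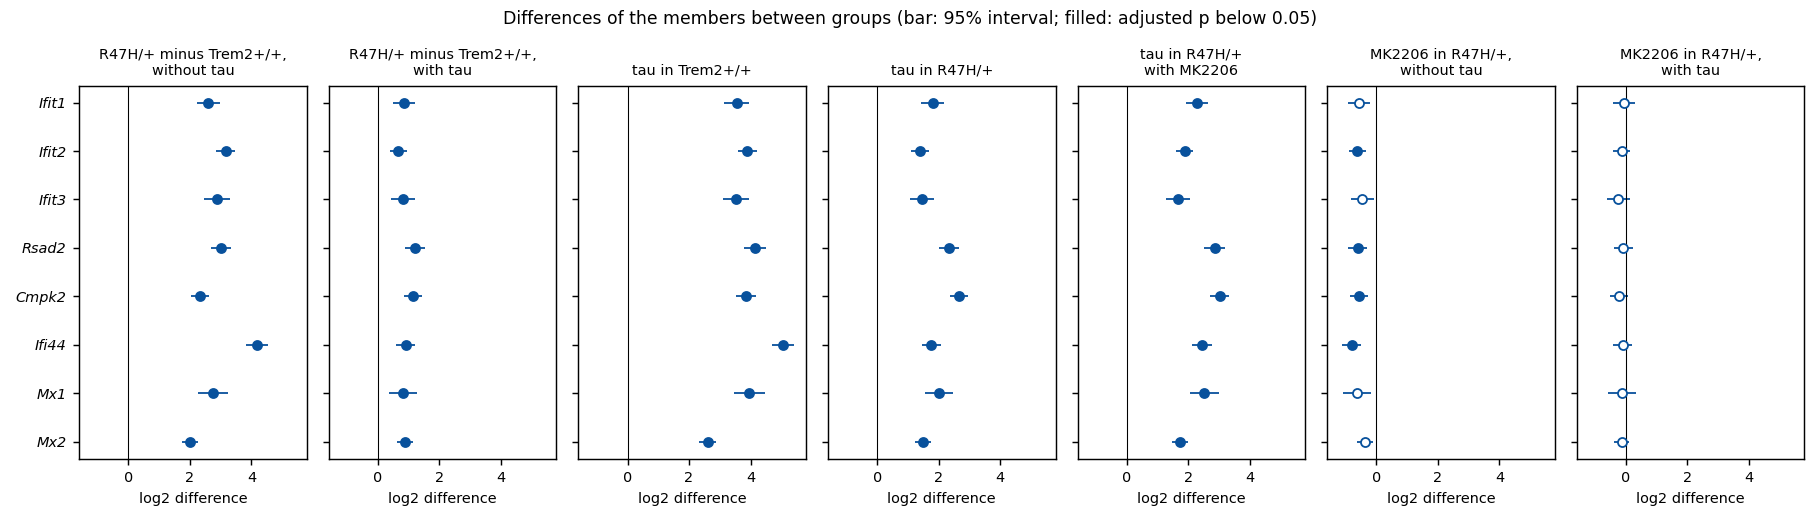
Log2 differences of the 8 members in 7 comparisons, with 95% intervals from the model over all genes. Filled points have an adjusted p below 0.05. All points are filled for genotype and tau, 4 of 8 for MK2206 without tau (Ifit2, Rsad2, Cmpk2 and Ifi44) and 0 of 8 for MK2206 with tau.

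The next comparison asks whether the members differ between R47H/+ cells with and without MK2206. Without tau, Ifit2, Rsad2, Cmpk2 and Ifi44 were lower in R47H/+ cells with MK2206 than in those without. Ifi44 fell to 0.573 of its level (-0.80 ± 0.14 log2, adjusted p 0.00554), Ifit2 to 0.653 (adjusted p 0.018), Rsad2 to 0.654 (0.0342) and Cmpk2 to 0.674 (0.0356). Ifit1 had -0.55 ± 0.17 (adjusted p 0.12), Mx1 -0.62 ± 0.21 (0.185), Ifit3 -0.45 ± 0.18 (0.311) and Mx2 -0.36 ± 0.12 (0.168), none of them past the threshold. In all 8 members, every library with MK2206 was below every R47H/+ library without it. The share of all genes separated in this way is not given, so the separation adds nothing to the results that did not pass. The members' median was -0.59 against -0.01 over all genes, of which 1.19% were called higher and 1.36% lower. All 8 were called without both length-shifted libraries, where 7.10% of all genes were called lower, and in a fit of the compared groups alone, where 9.06% were. Only Ifi44 was called when replicate 1 or 2 of R47H/+ cells or replicate 2 or 3 of the MK2206 cells was left out. Calls over all genes fell too, from 338 to 138 without replicate 2 of the MK2206 cells, and are not given for the other refits named. Without Trem2+/+ replicate 3, 6 members were called, where 3.16% of all genes were called lower.

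MK2206-treated R47H/+ cells were above Trem2+/+ cells in all 8 members without tau, from 3.11-fold in Mx2 to 10.5-fold in Ifi44, where 6.84% of all genes were called higher and 5.71% lower. Their excess over Trem2+/+ cells, as a difference of mean CPM, was between 54.9% (Ifi44) and 70.5% (Mx2) of the excess in R47H/+ cells without the inhibitor, and 61.0% in Ifit2. Without the length-shifted libraries all 8 were called, with a median of 2.26 log2 units (1.65 to 3.48), beside 14.7% of all genes called higher. Genotype and inhibitor both differ in this comparison, so they cannot be told apart in it.

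With tau present, no member was called different between R47H/+ cells with and without MK2206 by edgeR, by DESeq2 or at an unadjusted p below 0.05 (0 of 8 each). Differences lay between -0.24 ± 0.18 log2 in Ifit3 and -0.07 ± 0.17 in Ifit1. The 95% interval was -0.39 to 0.22 for Rsad2, -0.50 to 0.08 for Cmpk2 and -0.57 to 0.33 for Mx1. The value found without tau lies inside the interval with tau for Ifit3 and Mx2 and below it for the other 6, among them Ifi44 (-0.41 to 0.19). Of all genes, 1.64% were called higher and 1.40% lower. Cmpk2 alone was called without both length-shifted libraries, at -0.31 (adjusted p 0.0343), where 5.73% of all genes were called lower. The interaction of MK2206 with tau was above 0 in all 8, between 0.21 and 0.69, and passed the threshold in none, where 0.181% of all genes were called higher and 0.196% lower. An unadjusted p below 0.05 was found in 3 of 8, Ifit2, Rsad2 and Ifi44, and its share over all genes is not given. DESeq2 called 1 member, Ifi44, where it called 207 of 12249 genes, 110 of them higher. Ifi44 had 0.69 ± 0.20 (adjusted p 0.205), and it was called by edgeR without Trem2+/+ replicate 3 (adjusted p 0.0413), where 1.25% of all genes were called higher. A difference in the MK2206 effect between cells with and without tau was therefore not called in any member over all 18 libraries.

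Compared with tau-treated Trem2+/+ cells, R47H/+ cells with MK2206 and tau were higher in 6 of 8 members, where 4.0% of all genes were called higher and 3.07% lower. Rsad2 was 2.18-fold and Cmpk2 1.90-fold higher. Ifit3 (0.58 ± 0.18, adjusted p 0.074) and Mx1 (0.69 ± 0.21, adjusted p 0.0639) did not pass. No libraries overlapped in any member, which is a description without its share over all genes. All 8 were called without both length-shifted libraries, where 14.2% of all genes were called higher, or without Trem2+/+ replicate 3 alone, where 9.76% were. Only 4 were called without replicate 1 of Trem2+/+ with tau, where calls over all genes, in either direction, fell from 938 to 495.

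The members did not move in fixed proportion. These ratios were chosen after the values were seen and have no test. Within a library and per base of gene length, Cmpk2 stood at 0.380 to 0.492 of Ifit2 in Trem2+/+ cells and 0.375 to 0.472 with tau. In R47H/+ cells the ratio was 0.233 to 0.271 without tau and 0.555 to 0.670 with it. Under MK2206 it was 0.241 to 0.284 and 0.561 to 0.587, so the R47H/+ groups without tau lay below both Trem2+/+ groups and those with tau above them, with no overlap. The ratio of Rsad2 to Ifit2 was 0.427 to 0.528 in Trem2+/+ cells and 0.511 to 0.611 with tau, 0.410 to 0.461 in R47H/+ cells and 0.790 to 0.847 with tau. Rsad2 against Ifit2 was higher in R47H/+ than in Trem2+/+ cells with tau. Without tau the genotypes overlapped only through Trem2+/+ replicate 3, a length-shifted library, and the other Trem2+/+ libraries, at 0.468 and 0.528, lay above all R47H/+ ones. In the length-shifted libraries Cmpk2 stood at 0.380 of Ifit2 (Trem2+/+ replicate 3) and 0.595 (R47H/+ with tau replicate 2), and Rsad2 at 0.427 and 0.834. Mx1 stood at 0.143 to 0.300 of Ifit2 in Trem2+/+ cells and 0.224 to 0.261 with tau. In R47H/+ cells it stood at 0.155 to 0.189 and at 0.249 to 0.283 with tau, so that the genotypes overlapped with tau. Without tau they overlapped only through Trem2+/+ replicate 3, at 0.143. Trem2+/+ replicates 1 and 2, at 0.241 and 0.300, lay above all R47H/+ libraries.

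**Figure D4:**
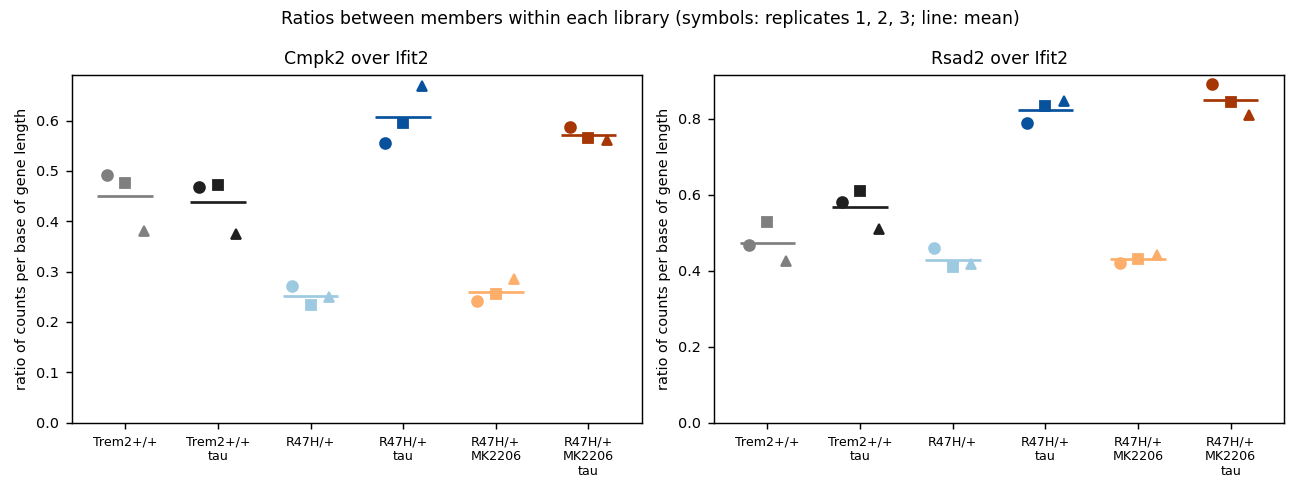
Ratios of Cmpk2 to Ifit2 and of Rsad2 to Ifit2 in each library, as counts per base of gene length, from 0. Lines are group means and symbols are replicates. The tau-treated R47H/+ groups, with and without MK2206, lie highest in both panels.

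Across the 18 libraries each member followed the mean of the other 7 closely, in log2 CPM, with Pearson's r from 0.9790 (Cmpk2) to 0.9966 (Rsad2). The loosest of the 28 pairs was Cmpk2 with Ifit3, at 0.9506. Libraries of a group share their condition, so these values mostly describe the 6 group levels. The 10 other genes closest to the members' mean were Irgm1 (0.9974), Ifi209, Iigp1, Phf11d, Gbp4, Gm12250, Gm20559, Sp110, Oasl1 and Fgl2 (0.9952), and 233 genes outside the members exceeded 0.95. Irgm1 and Iigp1 are immunity-related GTPases and Gbp4 is a guanylate-binding protein, and all 3 act on membranes around intracellular microbes. Iigp1 averaged 7.09 CPM in Trem2+/+ cells, 123 in R47H/+ cells, 266 in Trem2+/+ cells with tau and 474 in R47H/+ cells with tau. Only 5 of the 10, Irgm1, Iigp1, Phf11d, Gbp4 and Sp110, were again among the closest 10 without both length-shifted libraries.

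Upstream of the members, Ifnb1 was the only one of 10 listed interferon ligands with enough counts to test. It had 2 counts in all in Trem2+/+ cells, 62 with tau, 30 in R47H/+ cells, 333 with tau, 19 with MK2206 and 269 with both. The order of these sums is that of the members. Unlike in the members, however, R47H/+ libraries overlapped with those of MK2206, at 6, 8 and 5 counts, and with tau-treated Trem2+/+ ones. The model did not call Ifnb1 for MK2206 without tau. By library, Ifnb1 had 0, 2 and 0 counts in Trem2+/+ cells and 11, 15 and 4 in R47H/+ cells, and the ratio of these sums per depth was 15.8 with a 95% counting interval of 4.02 to 136.8. In tau-treated cells it had 22, 25 and 15 counts in Trem2+/+ and 100, 144 and 89 in R47H/+, a ratio of 5.62 (4.27 to 7.49). Both counting intervals pool the reads of a group and leave out the spread between libraries, so they are too narrow for comparing groups. The model called Ifnb1 higher in R47H/+ cells both without tau (adjusted p 0.00305) and with it (log2 2.60, adjusted p 0.000225). The other 9 ligands had at most 5 counts in any group. Over the 18 libraries Ifnb1 had r = 0.938 with the members' mean, Irf7 0.988, Stat2 0.951, Ifnar2 0.667 and Ifnar1 -0.163.

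Receptor genes lay close to 0 in most comparisons. Of 5 tested receptor genes none was higher and 1, Ifngr1, the interferon gamma receptor, was lower in R47H/+ than in Trem2+/+ cells without tau (-0.28 log2, adjusted p 0.0495). Ifnar1 had -0.31 (adjusted p 0.116) and Ifnar2 0.13 (0.418). Ifnar1 ranged from 113 to 164 CPM in Trem2+/+ libraries, lowest in the length-shifted replicate 3, and from 117 to 120 CPM in R47H/+ ones. Its missing call over all libraries therefore does not show equal levels. Of 12 signalling factors, 7 were higher and none lower, led by Irf7 (3.44, adjusted p 2.60e-10), Stat2 (2.20) and Irf9 (0.73). The list's median was 0.58, and with tau 3 of 12 were above Trem2+/+ cells. Irf8, a macrophage lineage factor, was lower with tau in R47H/+ cells (-0.35, adjusted p 0.0174), where 6 other factors were higher. Among 15 genes of nucleic acid and lipopolysaccharide sensing, 12 were higher in R47H/+ cells and none lower, with a median of 1.12. Zbp1, a sensor of Z-form nucleic acid, had 2.67, the RNA sensors Ddx58 and Ifih1 had 1.91 and 1.83, and their regulator Dhx58 had 1.62. Mavs, the adaptor of the RNA sensors, was lower in R47H/+ cells with tau than in Trem2+/+ cells with tau (-0.46, adjusted p 0.0221), where 4 other sensing genes were higher.

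Other interferon-induced effectors form the largest list. In R47H/+ cells without tau, 36 of 41 were higher and 1 lower, with a median of 1.73 log2 units against 2.82 for the members. Oasl1, of the oligoadenylate synthetase family, had 3.75, Apol9b 4.95, Phf11d 2.60 and Sp100, of nuclear bodies, 1.60. The exception was Ifi27 (-2.27, adjusted p 7.65e-05), which tau also lowered in Trem2+/+ cells (-2.78), as it did Ifitm1, an inhibitor of virus entry (-1.57, adjusted p 0.00803). Ifi27 ranged from 48.9 to 135 CPM in Trem2+/+ libraries, highest in the length-shifted replicate 3, which enlarges its differences from that group. It lay at 13.8 to 18.5 CPM in R47H/+ cells and 10.3 to 13.5 CPM in Trem2+/+ cells with tau. Tau raised 38 of 41 in Trem2+/+ cells (median 2.10) and 29 of 41 in R47H/+ cells (median 0.85). The genotype by tau interaction was lower in 31 of 41 and higher in 1, Ifi27 (2.03). With tau, 17 of 41 were higher in R47H/+ than in Trem2+/+ cells (median 0.42), against 8 of 8 members. MK2206 without tau lowered 7 of 41 (median -0.32) and raised none, and with tau none of 41 was called.

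Of the IFIT cluster paralogs, Ifit1bl1 (4.2) and Ifit3b (3.20) were higher in R47H/+ cells without tau, and Ifit1bl2 had 1.33 (adjusted p 0.07). All 3 were higher after tau in each genotype. Per length, Ifit3b stood at 0.161 to 0.169 of Ifit3 in Trem2+/+ cells and 0.260 to 0.273 in R47H/+ cells with MK2206 and tau. Negative regulators of the pathway rose in part, 5 of 11 in R47H/+ cells without tau, with a median of 0.39. Usp18, which removes ISG15 and blocks IFNAR2, had 2.09 (adjusted p 1.56e-07), the JAK inhibitor Socs1 1.32, Nlrc5 1.47 and Trim21 0.98. None of the 11 was lower there.

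**Figure D5:**
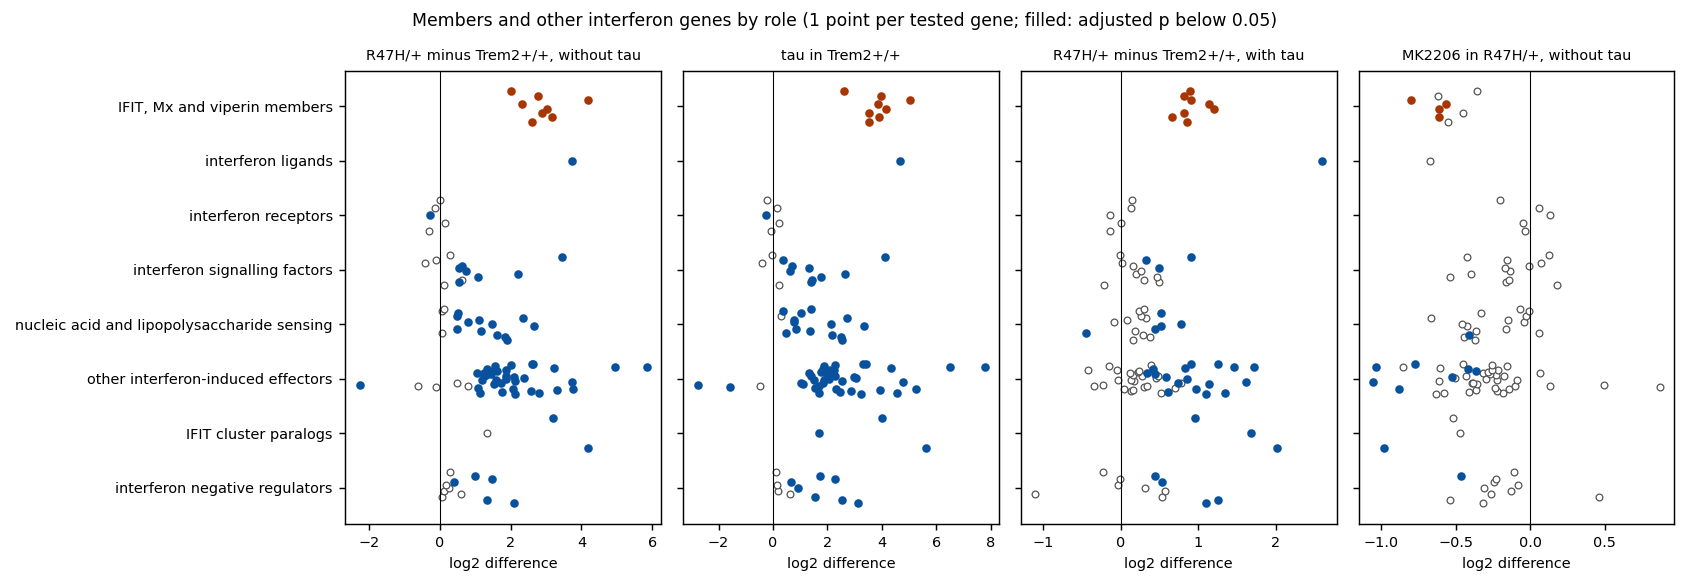
Log2 differences of the members and of the 7 other interferon gene lists in 4 comparisons, with 1 point per tested gene and a horizontal scale of its own in each panel. Filled points have an adjusted p below 0.05. The receptor genes lie near 0, and in untreated R47H/+ cells the members lie between 2.0 (Mx2) and 4.19 (Ifi44).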

How the data were processed

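The authors deposited 1 table of unnormalized gene counts (integers) for 18 libraries, beside each gene's length and GRCm38 coordinates. Per the submitters' processing notes, STAR, featureCounts and DESeq2 were used with GRCm38 (mm10), and no versions, settings or strand option are given. Without a known strand option, reads of overlapping or antisense genes cannot be told apart. Library totals lay between 16288531 and 20686299 counts.

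Tests were run with edgeR 4.0.16 (limma 3.58.1, R 4.3.3). Genes were kept by filterByExpr (13267 of 54532), library sizes were adjusted by TMM, and the quasi-likelihood fit took all 18 libraries together, with 1 coefficient for each of the 6 groups (12 residual degrees of freedom). The 9 pairwise comparisons and 2 interactions were tested two-sided, with p-values adjusted by Benjamini-Hochberg across the 13267 genes and a threshold of 0.05. An exact permutation of 3 against 3 cannot go below p = 0.1, so none is given. CPM used TMM-scaled library sizes, log2 CPM for correlations a prior count of 2, and TPM the deposited gene length. Chi-square per gene between replicates was at least 3.30, so the spread exceeded counting error and no library was a copy of another. The model was tested on simulated data.

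The members and the lists were chosen with earlier results of these data known. Named genes were the 8 members, up to 4 genes per list with the smallest p in R47H/+ against Trem2+/+ cells without tau, genes called against most of their list, the 10 genes closest to the members, Trem2 and markers. The values of 2 listed genes are not reported here. Further genes were named after their values were seen: the Ifnar1 and Ifnar2 correlations, the within-library ratios and Irf8 and Mavs where they alone went down. Motifs were searched in RefSeq promoters (GRCm38.p6) and 150-base windows in GENCODE M21 transcripts. As alternatives, the fit was repeated with RLE scaling, with all genes that had a count, with DESeq2 1.42.0, on the compared groups alone, with a replicate block, without each library in turn and without both length-shifted libraries.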

Additional observations from a re-analysis of the deposited data

Results flagged for a closer look

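In all 8 members the tau response differed between the genotypes by the interaction test over all genes, as a log2 change in R47H/+ cells minus that in Trem2+/+ cells. The IFIT genes had -1.74 (Ifit1, edgeR adjusted p 0.000315), -2.50 (Ifit2, 9.77e-07) and -2.07 (Ifit3, 0.000142). Rsad2 had -1.81 (adjusted p 6.28e-05) and its neighbour Cmpk2 -1.19 (0.00136). Ifi44 had -3.29 (7.58e-07), Mx1 -1.95 (0.000852) and Mx2 -1.11 (0.000832). On the CPM scale the rises with tau were instead larger in R47H/+ cells, by 1.05 times in Ifit2 to 2.0 times in Cmpk2, and this difference was not tested. Without the length-shifted libraries the ratio for Ifit3 was 0.982, below 1, and those of the other 7 lay between 1.16 and 2.17.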

How the results depend on the processing

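Over 24 alternatives, the 88 results of single members (8 members in 11 comparisons) kept their direction in all 2112 refits and their side of the threshold in 2047. In 35 a call was lost and in 30 a call was gained, all in the comparisons of R47H/+ with Trem2+/+ cells under tau, of MK2206-treated with other cells, or in the interaction of MK2206 with tau. For MK2206 against R47H/+ cells without tau, 4 members were called, 8 without both length-shifted libraries, 8 with the compared groups alone and 2 with a replicate block (Rsad2 adjusted p 0.0562, Cmpk2 0.0701). With 1 library left out it was 1 to 6. For MK2206 with tau, 0 became 1 without both libraries, and for MK2206 by tau 0 became 1 with DESeq2, without both libraries and without Trem2+/+ replicate 3 (range 0 to 1). With 1 library left out, R47H/+ against Trem2+/+ cells with tau had 6 to 8 members called, fewest without Trem2+/+ with tau replicate 1, and MK2206-treated R47H/+ against Trem2+/+ cells with tau had 4 to 8, fewest without the same library and most without Trem2+/+ replicate 3. The replicate numbers did not pair the samples: 4 of 45 same-numbered pairs correlated above 0.1, and 4 of 18 libraries correlated best with their own number.

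Counts of all genes called moved more. For R47H/+ against Trem2+/+ cells without tau, 1997 genes were called, 474 with the groups alone, 3907 without both length-shifted libraries and 1295 to 2975 with 1 library left out. For tau in Trem2+/+ cells the counts were 3519, 1311, 5589 and 2640 to 4188, and for MK2206-treated R47H/+ against Trem2+/+ cells 1665, 285, 3447 and 1068 to 2595. With tau, that last comparison had 938, 3269, 3699 and 495 to 2151, and the genotype by tau interaction 713, 360, 1610 and 471 to 1537 (1148 with DESeq2). Tau in MK2206-treated cells had 3393, 6225, 6475 and 2709 to 5079. Tau in R47H/+ cells had 3667, 5773 without both libraries and 2686 to 5856, and R47H/+ against Trem2+/+ cells with tau 1260, 3141 and 629 to 3469. MK2206 without tau had 338, 2236 with the groups alone, 1878 without both, 554 with DESeq2 and 138 to 857. MK2206 with tau had 403, 220 with the groups alone, 1620 without both, 708 with DESeq2, 236 with no count filter, 249 with the replicate block and 150 to 1729. MK2206 by tau had 50, 187, 667, 207 with DESeq2, 21 with the block and 9 to 313. With 1 library left out, the highest counts came without Trem2+/+ replicate 3 in 8 of the 11 comparisons and without Trem2+/+ replicate 1 in the other 3. The lowest came without replicate 2 of R47H/+ cells (3 comparisons), replicate 2 of MK2206 cells (3), replicate 1 of Trem2+/+ with tau (2), or replicate 2 of Trem2+/+ with tau, 3 of R47H/+ and 1 of MK2206 with tau (1 each). The cause of these moves was not tested, beyond the fewer libraries in a fit of the groups alone.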

Other observations

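The members' deviations from their group means, in log2 CPM, had the same sign for all 8 in 5 of the 18 libraries. In Trem2+/+ cells without tau, all 8 lay below the mean in replicate 1 and all 8 above it in replicate 2, by -0.26 and 0.26 on average, while replicate 3, a length-shifted library, was split, with 4 of 8 above, from -0.62 (Mx1) to 0.44 (Ifit3). In R47H/+ replicate 1 all 8 lay above (0.15 on average), and in replicate 1 of Trem2+/+ with tau (-0.10) and of R47H/+ with MK2206 and tau (-0.067) none did. The other 12 libraries had between 1 and 7 of 8 above. No test was made of these values, and a value above the mean in one replicate fixes that another lies below it.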
